A study of Homo sapiens with 6 samples.

Results

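*ELF3*, *GRHL2*, *AP1M2*, *CDS1*, *EPS8L1* and *ADAP1* are 6 of the 770 genes that the NanoString PanCancer Progression Panel measured in HCT116 colorectal carcinoma cells. They join a pair of epithelial transcription factors to 4 genes of vesicle traffic, phospholipid synthesis and actin or ARF control. The 6 genes were chosen by name for these roles, and selected on their lower values in p21-/- cells of these same samples. Their difference between the lines is therefore given as a description, with no test. The standard errors and intervals beside it come from a limma fit over all 770 genes. That fit draws the spread of each gene towards that of genes of similar level, so they are not the spread of these samples alone. The study compared 3 biological replicates of HCT116 wild-type (WT) cells with 3 of HCT116 p21-/- cells, all untreated, to profile the expression changes that accompany loss of *CDKN1A*, the gene of the cell cycle inhibitor p21. HCT116 p21-/- is an isogenic derivative of HCT116 in which *CDKN1A* was disrupted. The labels speak of knockout clones without saying how many, so a trait of the line and an effect of p21 loss cannot be told apart. The labels give RPMI medium for both lines, whereas the methods give DMEM for the p21-/- cells, and if the methods apply, medium and genotype cannot be told apart either.

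Epithelial identity is held by transcription factors that switch on junction and polarity genes. ELF3 is an ETS-family factor of simple epithelia such as the gut lining. GRHL2, a grainyhead-like factor, binds and activates *CDH1* and claudin genes and opposes the epithelial-mesenchymal transition (EMT), in which SNAI and ZEB factors repress epithelial genes through E-box elements in their promoters. The other genes serve membranes and the cytoskeleton. AP1M2 is the epithelial medium chain of the AP-1 clathrin adaptor and sorts cargo to the basolateral membrane. CDS1 makes CDP-diacylglycerol, from which phosphatidylinositol is built. EPS8L1 is a relative of the actin regulator EPS8, and ADAP1 is a phosphoinositide-binding GTPase-activating protein for ARF6 that is best known from neurons.

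The disrupted gene was checked first. For *CDKN1A* the WT replicates 1, 2 and 3 gave 4133, 5659 and 4312 normalized counts. The p21-/- replicates 1, 2 and 3 gave 460, 409 and 388. Every library labelled p21-/- was lower, though still above the background floor there. That floor, the lowest value a gene can take in a sample, lay between 25.7 and 34.9 normalized counts and matched the negative controls' mean with 2 of their SD added. Gene totals above the floor corresponded to 867421 to 1335467 barcode counts per sample. Of the defining markers of other cell types on the panel, both leukocyte markers and 4 of 6 endothelial markers were at the floor in all samples, and the others reached at most 43.2 (*CD34*). Of the 7 fibroblast markers, *COL1A1* was above the floor in all samples and fell (63.8 against 214.5 normalized counts in WT cells), and *PDGFRB* rose from the floor to 50.3, the summed level of the list being 388 to 444 in WT and 258 to 299 in p21-/- samples. Their part in the results was not tested. Of the 3 colon epithelial markers measured, *CDH1* and *KRT19* were lower and *EPCAM* was higher in p21-/- cells, the last by a difference that turned negative after scaling to housekeeping candidates.

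SNAI and ZEB factors recognise the E-box CACCTG, which reads CAGGTG on the other strand, and the starts of these genes are shown with it marked. Whether these factors act on the genes was not tested. Windows of 250 bases before annotated RefSeq starts (GRCh38.p14) were read for 5 of the genes, *ELF3*, *AP1M2*, *CDS1*, *EPS8L1* and *ADAP1*. The set of windows used held none for *GRHL2*. The windows printed are those that end at the annotated 5′ end of the gene, at chr1:202010337-202010586 (plus strand) for *ELF3*, chr19:10587313-10587562 (minus strand) for *AP1M2*, chr4:84582877-84583126 (plus strand) for *CDS1* and chr19:55075619-55075868 (plus strand) for *EPS8L1*. Each reads 5′ to 3′, with matches to this E-box in capitals.
ELF3: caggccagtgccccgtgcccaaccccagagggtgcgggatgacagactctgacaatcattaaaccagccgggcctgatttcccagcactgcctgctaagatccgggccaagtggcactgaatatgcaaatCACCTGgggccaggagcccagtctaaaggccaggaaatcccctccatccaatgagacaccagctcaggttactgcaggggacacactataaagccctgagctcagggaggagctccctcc
AP1M2: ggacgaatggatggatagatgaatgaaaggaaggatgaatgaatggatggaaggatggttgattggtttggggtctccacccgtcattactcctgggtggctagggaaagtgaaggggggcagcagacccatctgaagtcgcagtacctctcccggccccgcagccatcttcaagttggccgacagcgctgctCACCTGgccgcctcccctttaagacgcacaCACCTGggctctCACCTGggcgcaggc
CDS1: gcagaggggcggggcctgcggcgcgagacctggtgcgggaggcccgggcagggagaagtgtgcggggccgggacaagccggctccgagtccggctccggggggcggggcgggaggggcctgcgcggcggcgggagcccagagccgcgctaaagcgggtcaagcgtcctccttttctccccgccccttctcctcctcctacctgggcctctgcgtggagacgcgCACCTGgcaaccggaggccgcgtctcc
EPS8L1: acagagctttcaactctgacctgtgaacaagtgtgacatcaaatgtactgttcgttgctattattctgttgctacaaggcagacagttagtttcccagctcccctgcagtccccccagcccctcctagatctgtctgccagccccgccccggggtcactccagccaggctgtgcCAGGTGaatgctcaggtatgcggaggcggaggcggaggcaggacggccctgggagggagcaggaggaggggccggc

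The E-box CACCTG was present on either strand in 8 of the 9 windows of these genes, with at least 1 match for each of the 5 genes. It was present in 17.5% of all 35116 windows of the table and in 24.6% of the 557 panel genes found in it, counted over all their starts. *AP1M2* had 3 matches, beginning 57, 27 and 15 bases before its start. *CDS1* had 1 match, 27 bases before its start, *EPS8L1* 1 match, 76 bases before its first start, and *ELF3* 1 match, 120 bases before its start. *ADAP1* has 4 annotated starts, all inside the gene's outer limits, with 1, 3, 1 and 2 matches. These windows belong to 1 gene and are not independent. The broader E-box CANNTG, which includes CACCTG, was in all 9 windows and in 61.8% of all windows. The grainyhead motifs AACCGGTT and AACNNGTT were in none of the 9 windows, against 0.117% and 3.00% of all windows. The ETS core GGAAG, searched on both strands, was in 4 of 9 windows, against 65.1% of all. *ELF3* also held a TATAAA, 34 bases before its start, which 10.7% of all windows hold on either strand. A match describes letters in the window, and binding was not measured.

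**Figure D1:**
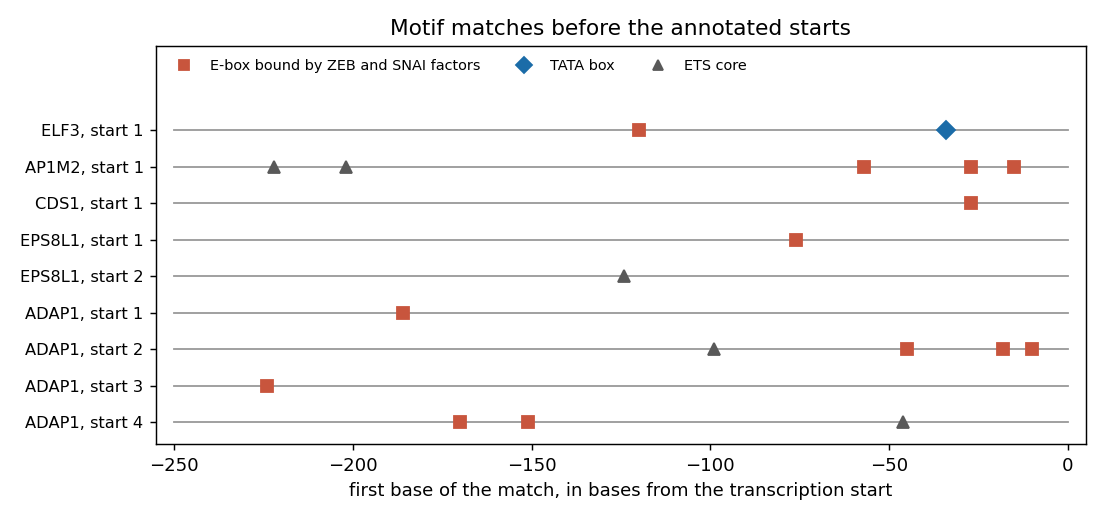
Matches to the E-box CACCTG (squares), the TATA box (diamond) and the ETS core (triangles), on either strand, in the 250 bases before each annotated start of 5 of the genes. The horizontal axis is the first base of the match in bases from the transcription start. E-boxes appear in 8 of the 9 windows, and *AP1M2* and the second start of *ADAP1* hold 3 each.

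*ELF3* was measured at 4692, 4131 and 4693 normalized counts in the WT samples, in the order of replicates 1, 2 and 3 that is kept below. The p21-/- samples stood at 467, 489 and 400. All p21-/- samples lay far below all WT samples, and their mean was 10.0% of the WT mean. The log2 difference between the lines was -3.32 (standard error 0.101, 95% interval -3.53 to -3.10), on the log2(normalized count + 1) scale used throughout. This was rank 13 among the falls of the 770 genes. In these bulk samples, fewer cells with the transcript and less of it per cell cannot be told apart. The exact Poisson counting intervals of the p21-/- samples were 424 to 513, 448 to 532 and 364 to 439 normalized counts, which cover counting error only.

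*GRHL2* had 261, 239 and 274 normalized counts in the WT samples, and 42.1, 43.7 and 31.4 in the p21-/- samples. The last value is the floor of p21-/- replicate 3, so only an upper limit is known there. The log2 difference of -2.70 (standard error 0.178, 95% interval -3.08 to -2.32) is limited by this floor. In p21-/- replicates 1 and 2 the values rested on 39 and 48 barcode counts, which were 1.82 and 2.56 times the mean of the negative controls of the same sample. The remaining *GRHL2* signal in the knockout line was thus close to background. With the mean of the negative controls subtracted, an alternative chosen after seeing the data, the log2 difference was -3.56 for *GRHL2* and -3.37 for *ELF3*, so which of these factors fell more depends on how background is treated.

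*AP1M2*, the adaptor subunit, had 2042, 2182 and 2345 normalized counts in WT cells, and 589, 524 and 523 in p21-/- cells. The lines did not overlap, and 24.9% of the mean WT level remained. The log2 difference was -2.0 (standard error 0.0980, 95% interval -2.21 to -1.79).

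*EPS8L1*, the EPS8-like actin regulator, had 357, 462 and 501 normalized counts in WT cells and 112, 134 and 141 in p21-/- cells. WT replicate 1 was the lowest of its line, on 237 barcode counts, and p21-/- replicate 1 was the lowest of its own. The log2 difference was -1.75 (standard error 0.163, 95% interval -2.10 to -1.41), and 29.3% of the mean WT level remained.

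*ADAP1*, the ARF6 regulator, had 452, 490 and 495 normalized counts in WT cells and 225, 218 and 214 in p21-/- cells. Both lines were tight, with an SD of the log2 values of 0.0711 in WT and 0.0374 in p21-/- samples. The log2 difference was -1.12 (standard error 0.126, 95% interval -1.39 to -0.85), with 45.8% of the mean WT level left.

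*CDS1*, the CDP-diacylglycerol synthase, showed the smallest fall of the 6 genes. It had 1707, 1870 and 1642 normalized counts in WT cells and 935, 856 and 853 in p21-/- cells. The log2 difference was -0.98 (standard error 0.0939, 95% interval -1.18 to -0.78). The mean fell to 50.7% of that in WT cells, and the lines still did not overlap.

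**Figure D2:**
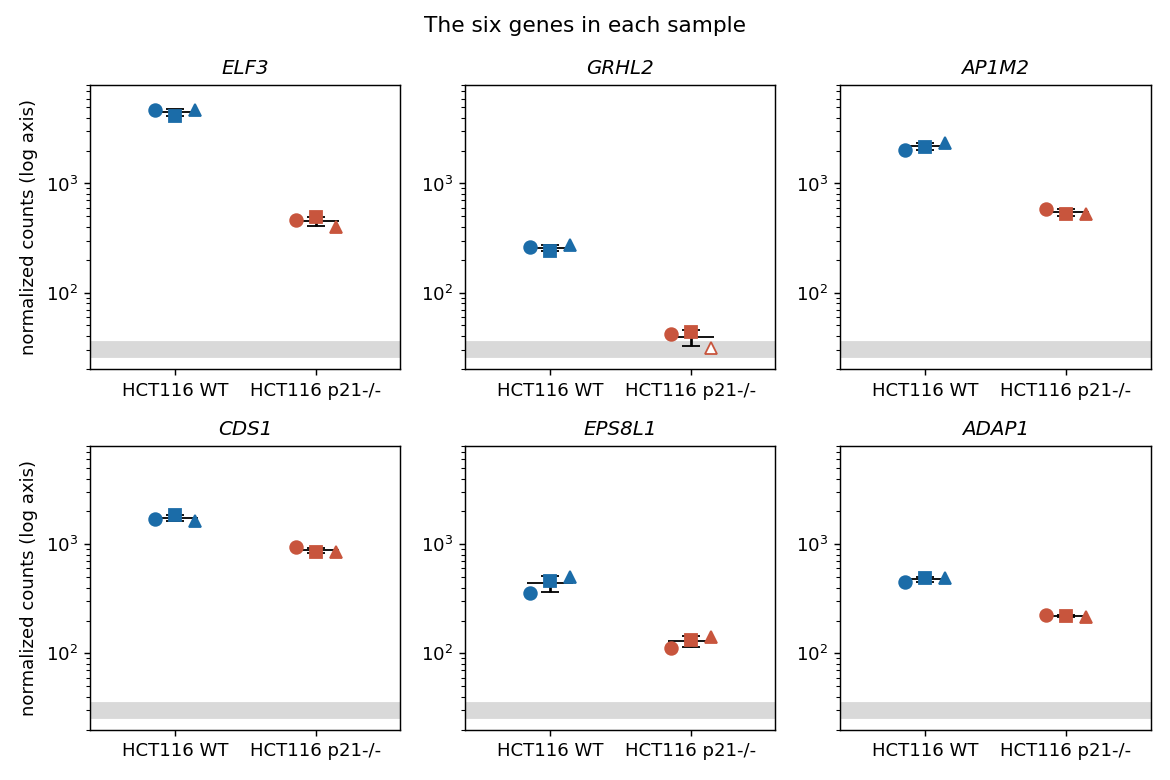
Normalized counts (logarithmic axis) of the 6 genes in each sample of HCT116 WT (blue) and HCT116 p21-/- (red). Circles, squares and triangles are replicates 1, 2 and 3, the horizontal mark with its bar is the mean ± SD (n = 3 per line), the grey band spans the floors of the samples, and the open triangle of *GRHL2* is a value at the floor. All p21-/- points lie below all WT points in every panel.

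For all 6 genes every p21-/- sample lay below every WT sample, as for 26.8% of the 770 genes. Since these genes were selected on this difference, nothing is read from the count. Ordered by the size of the fall they ran *ELF3*, *GRHL2*, *AP1M2*, *EPS8L1*, *ADAP1* and *CDS1*, at ranks 13, 21, 35, 45, 87 and 103 of the panel. The 95% intervals of the neighbours *AP1M2* and *EPS8L1* overlapped, and so did those of *ADAP1* and *CDS1*. Those of *ELF3* and *GRHL2* just failed to meet, and the floor limits the latter. The transcription factors had the largest changes and the lipid and ARF genes the smallest. Levels of different genes are not compared, since probes do not count with equal efficiency.

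**Figure D3:**
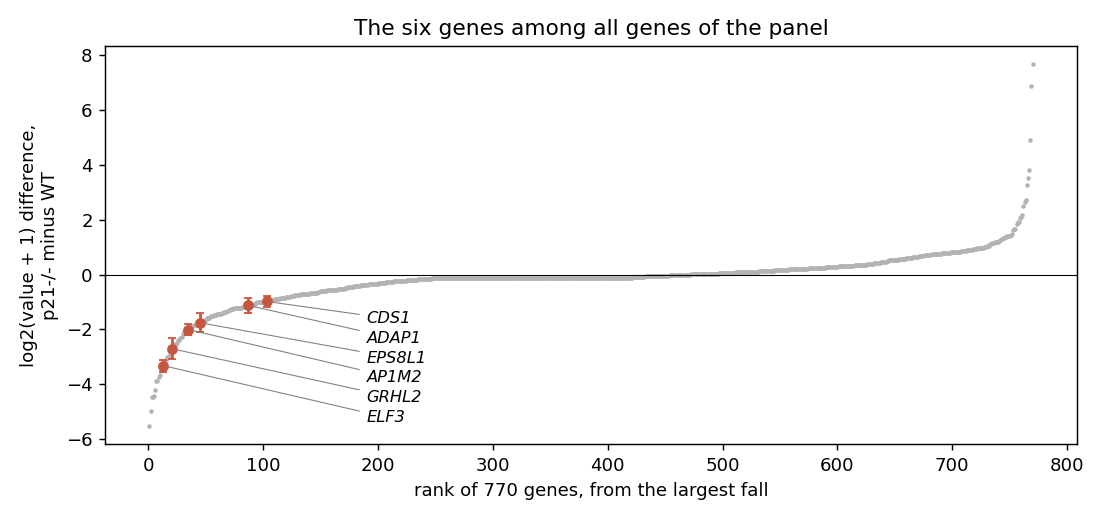
Log2(value + 1) difference between p21-/- and WT samples (vertical axis) for all 770 genes ranked from the largest fall (grey points), with the 6 genes in red and their 95% intervals from limma as bars. *ELF3* is at rank 13 and *CDS1* at rank 103.

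Ratios between these genes within a sample do not depend on the scaling between samples. The ratios of the lines did not overlap in 13 of the 15 pairs. The share among other pairs of panel genes was not computed, so nothing is read from this count. For *ELF3* to *GRHL2* overlap cannot be judged, since *GRHL2* was at the floor in p21-/- replicate 3. The ratio of *AP1M2* to *CDS1* was 1.20, 1.17 and 1.43 in WT cells against 0.630, 0.612 and 0.613 in p21-/- cells, so *AP1M2* fell more than *CDS1* in each comparison of samples. *AP1M2* to *EPS8L1* was a pair whose lines overlapped, with ratios of 5.72, 4.73 and 4.68 in WT against 5.25, 3.92 and 3.72 in p21-/- samples. The ratio of *CDS1* to *ADAP1* moved little, from 3.78, 3.82 and 3.32 to 4.15, 3.92 and 3.98, a log2 change of 0.14. By the ratio of *AP1M2* to *CDS1*, the genes did not fall by a common factor. *ELF3* and *GRHL2* kept an even ratio across the WT samples, at 18.0, 17.3 and 17.1. In p21-/- samples the ratio was 11.1 and 11.2 in replicates 1 and 2 and at least 12.7 in replicate 3, a bound that does not exclude the WT values.

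**Figure D4:**
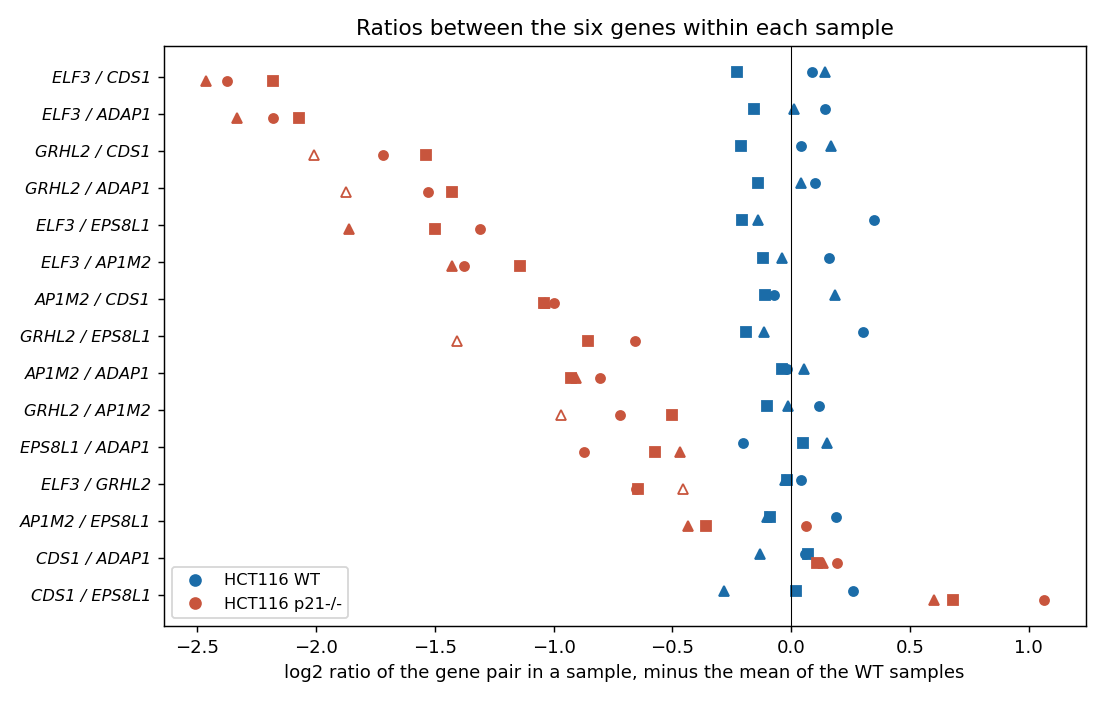
Log2 ratio of each of the 15 gene pairs within a sample, minus the mean of the WT samples (horizontal axis), for WT (blue) and p21-/- (red) samples, with circles, squares and triangles for replicates 1, 2 and 3. Open triangles mark ratios that use the floor value of *GRHL2*. Measured values of the lines overlap for *AP1M2* to *EPS8L1*, and for *ELF3* to *GRHL2* the open triangle is a lower bound, so that overlap there cannot be judged.

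Replicate spread differed among the genes. In WT samples the SD of the log2 values was 0.0711 to 0.106 for 5 of the genes and 0.254 for *EPS8L1*, against a median of 0.160 over 446 genes that no sample held at the floor. In p21-/- samples it was 0.151 for *ELF3* and 0.170 for *EPS8L1*, against a median of 0.0634, and no spread is given for *GRHL2*, which had a sample at the floor. *ELF3* and *GRHL2* had the same order of replicates in p21-/- cells, with replicate 2 the highest and replicate 3 the lowest, while for *EPS8L1* replicate 1 was the lowest. For *ELF3* and *GRHL2* the counting intervals of p21-/- replicates 1 and 2 overlapped, so their order is within counting error. In WT cells *ELF3* and *GRHL2* were both lowest in replicate 2 and *AP1M2*, *EPS8L1* and *ADAP1* in replicate 1. With 3 samples per line this is a description.

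Of the other regulators of epithelial transcription and splicing on the panel, *ESRP1* fell, *OVOL2* rose, and *SPDEF* was near the floor. *ESRP1*, an epithelial splicing factor, had 9433 ± 706 normalized counts in WT and 2730 ± 165 in p21-/- cells (SD, n = 3), a log2 difference of -1.79. *OVOL2*, a zinc finger repressor of EMT genes and itself a known GRHL2 target, moved against *ESRP1*. Its normalized counts were 164, 155 and 126 in WT cells against 594, 542 and 554 in p21-/- cells, a log2 difference of 1.92 (standard error 0.143, adjusted p = 1.06e-08 in limma with Benjamini-Hochberg adjustment over 770 genes). Over the 17 alternatives its log2 difference lay between 1.54 and 2.30, and its adjusted p between 1.52e-34 and 0.00108. *SPDEF* had a log2 difference of 0.07 (adjusted p = 0.787). Among the 4 ETS relatives of *ELF3*, *ETV4* rose (log2 difference 0.79) and *ELK3* (-0.17) and *SPDEF* did not pass the test. *FLI1* was at the floor in all samples.

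Of 11 measured genes known from other work as GRHL2 targets, 8 fell and 2 rose, with a median log2 difference of -0.94. Over all 770 genes, 26.0% were lower and 21.8% higher, with a median of -0.12. Those 770 include 167 genes at the floor in every sample, which were not called and each had a log2 difference of -0.12. The 446 genes that no sample held at the floor had a median of -0.05, and all 11 targets were among them. The shares called were not computed for those 446 genes, so the excess of falls over the panel cannot be sized. *CDH1*, encoding E-cadherin, fell to 10.5% of its WT level, with 2687 ± 376 normalized counts in WT and 283 ± 11.5 in p21-/- cells (SD, n = 3). *CLDN7*, a tight junction claudin, and *RAB25*, a GTPase of apical recycling, had log2 differences of -2.17 and -1.90. *OVOL2* and *EPCAM* were called higher. The rise of *EPCAM*, an epithelial adhesion molecule, was small (log2 difference 0.22, adjusted p = 0.0444 in limma). It was lost without WT replicate 2 or any 1 of the p21-/- replicates (adjusted p from 0.0705 to 0.223). Its call and direction held in 9 of 17 alternatives, over which the adjusted p lay between 0.000529 and 0.223, and its difference was -0.17 after scaling to housekeeping candidates. *CLDN3* had a log2 difference of 0.25 (adjusted p = 0.148).

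The EMT factors, several of which bind E-boxes, were called in both directions, 2 higher and 2 lower of 7. These shares were near the 21.8% higher and 26.0% lower of all 770 genes. The median log2 difference of the factors, -0.12, was that of *ZEB2* and *TWIST2* at the floor. The median of all genes is set by the same difference between floors, so nothing is read from the match. *SNAI2*, which no WT sample held above the floor, was at least 11.5-fold higher in p21-/- cells, and *ZEB1* had a log2 difference of 1.16. *TWIST1* (-1.0) and *SNAI3* (-0.43) fell, and the call of *SNAI3* held in 7 of 17 alternatives and was lost without any 1 sample (adjusted p from 0.0576 to 0.206). *SNAI1* (-0.20, adjusted p = 0.392) did not pass, and *ZEB2* and *TWIST2* were at the floor in all samples.

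Among the 7 other genes of epithelial vesicle traffic and polarity, 4 fell and 1 rose, with a median log2 difference of -0.91. Over all 770 genes, floored ones included, 26.0% were lower and 21.8% higher, with a median of -0.12. No sample held any of the 7 at the floor. Besides *RAB25*, the genes that fell were *TOM1L1*, an endosomal sorting adaptor (-1.52), *LLGL2*, a basolateral polarity protein (-1.35), and *EPN3*, an epsin of clathrin-coated pits (-0.91). The call of *EPN3* held in 16 of 17 alternatives. *PRKCZ*, an atypical protein kinase C of the apical complex, rose by 0.29, a call that held in 10 of 17 alternatives and turned to -0.10 after scaling to housekeeping candidates. It was lost without WT replicate 2 or any 1 of the p21-/- replicates (adjusted p from 0.0813 to 0.175). *DLG1* (-0.17, adjusted p = 0.132) and *MYO5C*, an unconventional myosin (0.12, adjusted p = 0.337), did not pass the test. Without WT replicate 1, *DLG1* passed (log2 difference -0.24, adjusted p = 0.00696).

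The other genes of phosphatidylinositol supply and turnover showed no common direction. *PIK3CD*, *PIK3R2* and *PLCG2* fell, with log2 differences of -1.67, -0.43 and -0.37. *PIK3CA* and *PLCG1* rose, with log2 differences of 0.97 and 0.86. *PIK3R1* (0.33, adjusted p = 0.0557) did not pass, and *PIK3CG* was at the floor in all samples. Under median scaling the falls of *PIK3R2* and *PLCG2* no longer passed the test. Nor did *PIK3R2* without WT replicate 3 (adjusted p = 0.0515) or *PLCG2* without p21-/- replicate 1 (0.0906), and *PIK3R1* passed without WT replicate 2 (0.0423) or 3 (0.0329).

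Of 4 other actin and ARF regulators, all small GTPases that control the actin cytoskeleton, 3 were called lower and 1 higher, calls that leaving out 1 sample reduced to as few as 1 and 0. Their median log2 difference was -0.26, against -0.12 over all genes, of which 26.0% were lower and 21.8% higher. Those values again include floored genes, whereas none of these 4 was at the floor in any sample. *RAC2* fell by 0.79 on the log2 scale, *RHOA* by 0.29 and *RAC1* by 0.24, and *CDC42* rose by 0.28, or was at -0.11 after scaling to housekeeping candidates. The changes of *RAC1*, *RHOA* and *CDC42* were of the size by which scalings move all genes. *RAC1* and *RHOA* lost the call under median scaling (log2 differences -0.02 and -0.07). Without p21-/- replicate 3 the adjusted p in limma was 0.123 for *RAC1* and 0.0513 for *RHOA*. Without p21-/- replicate 1 it was 0.0593 for *RAC1* and 0.053 for *CDC42*, and without p21-/- replicate 2 it was 0.092 and 0.0551. *RAC2* kept its call without any 1 sample, and in 16 of the 17 alternatives.

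**Figure D5:**
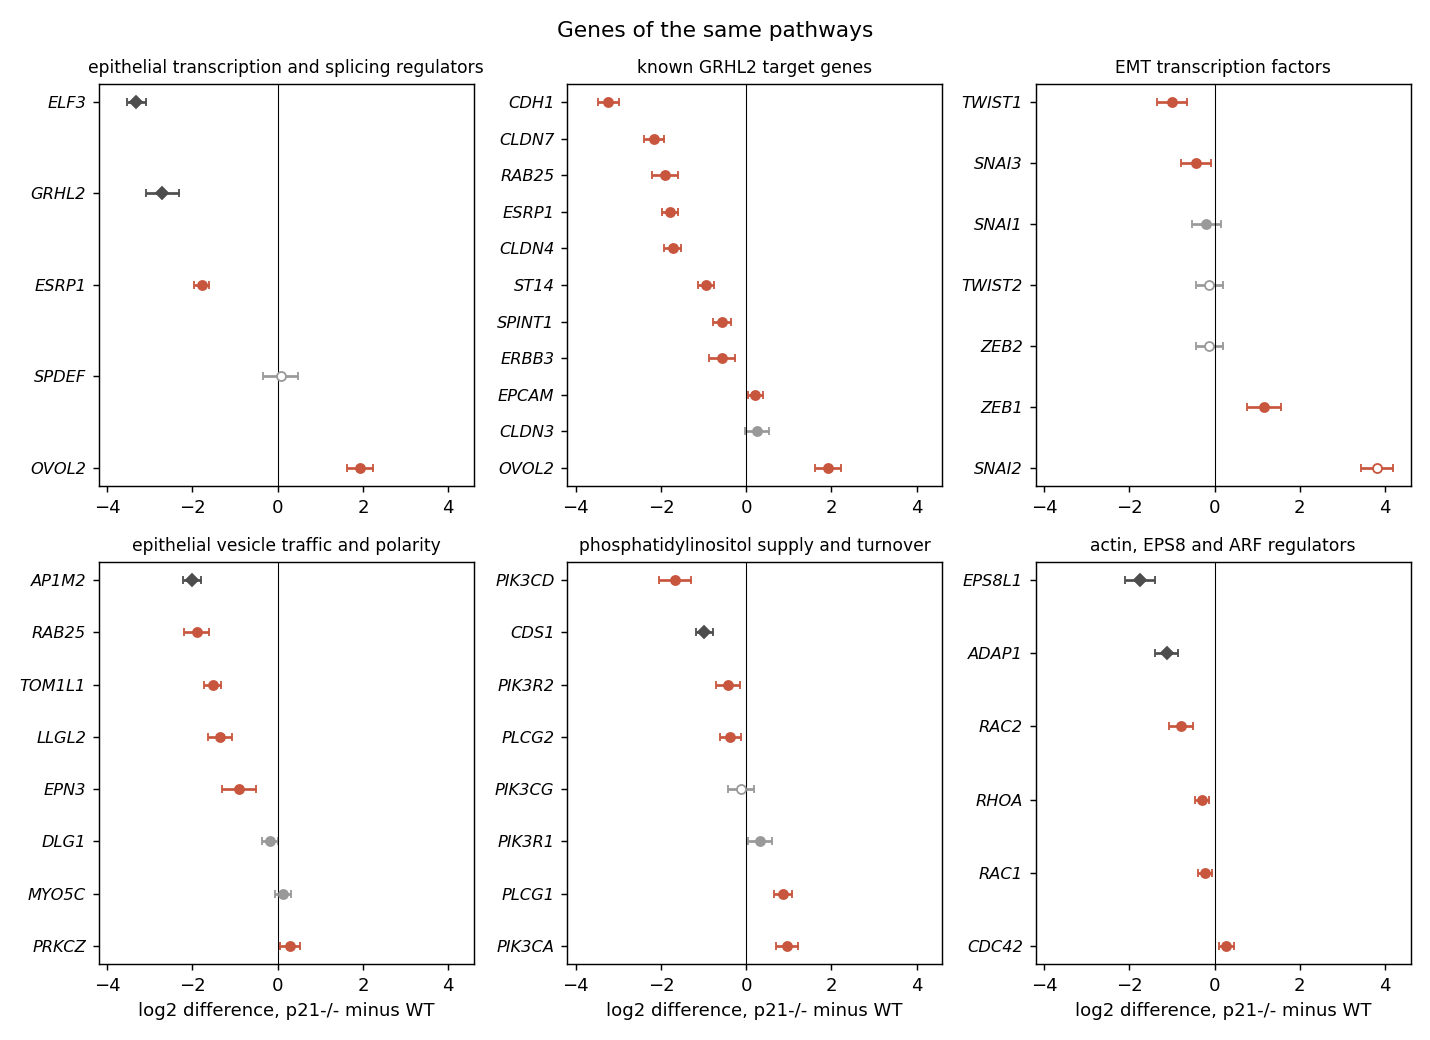
Log2 difference between p21-/- and WT samples with 95% intervals from limma (n = 3 per line) for genes of 6 of the lists described in the text, with a few of their genes not drawn. Dark diamonds are genes selected on this contrast, red circles passed an adjusted p below 0.05, grey circles did not, and open circles had a whole line at the floor. *OVOL2* lies to the right of zero, and the regulators drawn as diamonds were selected for lying to the left.

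Of 33 measured genes of epithelial junctions, keratins and the cell surface, 21 fell, 1 rose and 11 did not pass the test. Their median log2 difference was -0.85, beside the same 26.0%, 21.8% and -0.12 over all genes. Of the 33, 26 were above the floor in every sample and 2 at it throughout, against 446 and 167 of the 770 genes. The largest falls were those of *PPL*, encoding periplakin (-3.41), *CDH1* (-3.23) and *S100A14*, an epithelial S100 protein (-3.02). *EPCAM* was the gene that rose, under the deposited scaling. *CLDN1* (0.00, adjusted p = 0.977) and *KRT14* (-0.03, adjusted p = 0.851) were at or near the floor. The list shares genes with that of the GRHL2 targets, so their counts are not separate results.

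Likeness of pattern was measured as Pearson's r over the 6 samples on log2 values, among 441 other genes above the floor in all samples. It mainly follows the contrast between the lines, and 91 to 121 genes had an r above 0.95 with each of the 6 genes. *DPYSL3*, *CGN* and *ID2* were closest to *ELF3* (r = 0.999, 0.998 and 0.997). *COL1A1*, *PXDN* and *SMURF2* were closest to *GRHL2* (r = 0.996 each). *PXDN*, *ID2* and *IL18* were closest to *AP1M2* (r from 0.9988 to 0.9998), *CDKN1A*, *RPS27A* and *RBPJ* to *CDS1* (0.9954 to 0.9975), *HSPG2*, *ITGA2* and *EGFR* to *EPS8L1* (0.9984 to 0.9991), and *EPAS1*, *SMURF2* and *PXDN* to *ADAP1* (0.9991 to 0.9992).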

How the data were processed

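RNA from 3 WT and 3 p21-/- cultures of HCT116 was hybridized to the NanoString panel. The deposited gene values are a signal, counts that the authors normalized in nSolver to positive controls and housekeeping genes and raised to a floor, and control probes are raw counts. The factor between normalized and barcode counts was found from values below 500 within 0.1 count (100% whole). Values were tested as log2(value + 1) with limma 3.58.1 in R 4.3.3 (lmFit, eBayes with trend, no covariate, no filter), two-sided, with Benjamini-Hochberg adjustment over 770 genes and a threshold of 0.05. The fit was tested on simulated data. The members and gene lists were chosen with earlier results of these data known. The lists come from general knowledge. Lists of 8 or fewer measured genes are named whole, longer ones by their 3 largest falls and rises and the 2 genes of largest p, and likeness by the 3 highest r. A few genes that these rules select are left unnamed. Bounds compare geometric means, with a floored value taken at the floor or at the floor times the factor, whichever is higher. The alternatives changed the pseudocount (10 or 0.5), kept genes with a mean of at least 20, scaled by the median, by quantiles or by housekeeping candidates, dropped the variance trend or the shared variance, blocked on the replicate number, set floored values at their upper bound, subtracted background, or left out each sample. Replicates are described as biological. The lines were profiled in a single series with no batch given. With 3 samples against 3, an exact permutation test cannot give a two-sided p below 0.1. Promoter windows came from RefSeq (GRCh38.p14). Of the panel's symbols, 755 matched RefSeq. The count model of the methods was not used, since it needs raw counts.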

Additional observations from a re-analysis of the deposited data

How the results depend on the processing

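All 6 genes were lower in p21-/- cells under all 17 alternatives. Their log2 differences moved by more than the replicate SD mainly with the scaling. Under median scaling they were -3.10 (*ELF3*), -2.49 (*GRHL2*), -1.79 (*AP1M2*), -0.77 (*CDS1*) and -0.91 (*ADAP1*). Under quantile normalization they were -3.05 (*ELF3*), -1.75 (*AP1M2*), -0.84 (*CDS1*), -1.44 (*EPS8L1*) and -0.80 (*ADAP1*). Scaling to housekeeping candidates gave -3.70 (*ELF3*), -3.08 (*GRHL2*), -2.39 (*AP1M2*), -1.36 (*CDS1*), -2.14 (*EPS8L1*) and -1.51 (*ADAP1*). *GRHL2* was at -2.46 with a pseudocount of 10 and at -3.56 after background subtraction, where *ADAP1* was at -1.19. The median log2 difference of all genes was -0.12 as reported, 0.09 with median scaling and 0.00 with quantile normalization. It was -0.35 with the floor at its upper bound and -0.49 with housekeeping scaling. The 30 housekeeping candidates had a median of 0.38 as reported, with 19 called higher and 3 lower, so the deposited scaling did not level them. Of the 770 genes, 200 were called lower and 168 higher as reported, 169 and 251 with median scaling, 155 and 214 with quantile normalization, 529 and 97 with housekeeping scaling, and 392 and 168 with the floor at its upper bound, where genes at the floor in all samples take values that differ between samples by construction. Leaving out each sample gave *ELF3* between -3.38 and -3.23, *GRHL2* between -2.79 and -2.56, *AP1M2* between -2.06 and -1.95, *EPS8L1* between -1.90 and -1.65, *ADAP1* between -1.16 and -1.10 and *CDS1* between -1.02 and -0.93. Of the 67 other list genes, 36 were lower and 10 higher as reported, and with housekeeping scaling 52 were lower and 6 higher, where *CDC42* (-0.11), *EPCAM* (-0.17), *ITGA6* (-0.35), *MYO5C* (-0.27) and *PRKCZ* (-0.10) reversed. The cause was not tested. Same-numbered samples did not deviate together (correlations of 0.076, -0.054 and 0.052 over 446 genes), so they share only a number, and with the replicate block 202 genes were lower and 161 higher, and 34 and 9 list genes. The floor limits *GRHL2* and other low genes.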
